A study of Drosophila melanogaster with 20 samples.

Results

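The genes described here are the core of the Toll pathway of Drosophila melanogaster: spz, Tl, Myd88, tub, pll, cact, dl, Dif and PGRP-SA. Members were found by gene symbol in the array's annotation, counting probe sets that carry 1 symbol. Of the 9 genes, 8 were matched, on 11 of the 18769 probe sets tested and among 11982 named genes. No probe set was matched by name to PGRP-SA, the secreted receptor that senses bacterial cell wall, and it is not analysed here.

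The study used Affymetrix Drosophila Genome 2.0 arrays to measure RNA in SL2, an embryo-derived fly cell line with blood cell character. Cells given dsRNA (double-stranded RNA) directed at selenophosphate synthetase 1, SPS1, made up 5 samples at day 1, 2 at day 3 and 2 at day 5. Cells left without treatment made up 5 samples at day 1, 2 at day 3 and 2 at day 5. The untreated cells received no dsRNA of any sequence, so a response to dsRNA as such and a response to loss of SPS1 cannot be told apart. All groups share the SL2 line and its serum-free medium. For the day 5 dsRNA samples the titles name SPS1 dsRNA while the source field reads as no treatment, and the titles were followed. Nothing in the labels ties a biological replicate to a separate culture, so the spread behind each p-value is that of these samples and may be technical.

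The Toll pathway links recognition of microbes outside the cell to transcription. Proteases cleave the ligand Spätzle, which then activates the receptor Toll, and Toll recruits MyD88, Tube and the kinase Pelle. That complex leads to loss of Cactus, an inhibitor that holds the NF-κB factors Dorsal and Dif in the cytoplasm, and the freed factors switch on antimicrobial peptide genes in fat body and blood cells. The same pathway patterns the dorsal-ventral axis of the embryo, where Dorsal is the factor that acts.

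By the RefSeq annotation of assembly Release 6 plus ISO1 MT, spz, Tl, tub and pll lay on chromosome arm 3R. The genes cact, dl and Dif lay on arm 2L, and Myd88 lay on arm 2R. The related factors dl and Dif were close neighbours, with 2 protein-coding genes between them, whereas 39 genes separated spz from Tl and 75 separated Tl from pll. Tl, cact and dl had a pair of probe sets each, and the other 5 genes had 1. Each gene was counted by its brighter probe set, and the other is called its second probe set. Identifiers of 6 of the 11 probe sets carry the suffix that marks probes shared between transcripts, so those values can mix transcripts.

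All levels and changes below are on the log2 scale of the deposited values, so a change of 1 is a doubling. The label of the line was set against 10 markers of plasmatocytes, the blood cell type it resembles. Of these, 6 (srp, Hml, Pxn, crq, vkg and Col4a1) lay above every array's median level on all arrays, while He and Sr-CI lay below every array's median. Of markers of other tissues, the neuron genes elav, nSyb and brp, all 3 measured, also lay above every array's median. The muscle genes Act88F and Mlc2, both measured, lay below every array's median. So did Yp1, 1 of 3 fat body genes measured, and vas, 1 of 2 germline genes measured. The other genes of those lists lay neither above nor below every array's median. Of 5 crystal cell and lamellocyte genes, PPO2 and PPO3 lay above and lz and PPO1 below every array's median. The number of arrays limits the precision, and the normalization used, RMA, compresses changes of dim probe sets.

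All 8 Toll core genes gave a signal above the array medians in untreated SL2 cells. Over all samples, those given dsRNA included, the counted probe sets of spz, tub and cact lay above the upper quartile of every array. By the same measure Tl, Myd88, pll, dl and Dif lay above every array's median but not above the upper quartile on all of them. For Tl and dl it was dsRNA samples of day 1 that fell short. Their lowest untreated levels were 8.293 and 8.475, above the highest upper quartile of 8.142. The second dl probe set lay above the upper quartile of every array in all samples. Dif, at 4.97 to 5.63 across all samples, was nearest to the array medians, which ran from 4.53 to 4.69. Lying above a median does not by itself show expression, as the 3 neuron markers lay above every array's median too. Brightness depends on the probes, so no order between genes was drawn from it.

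**Figure D1:**
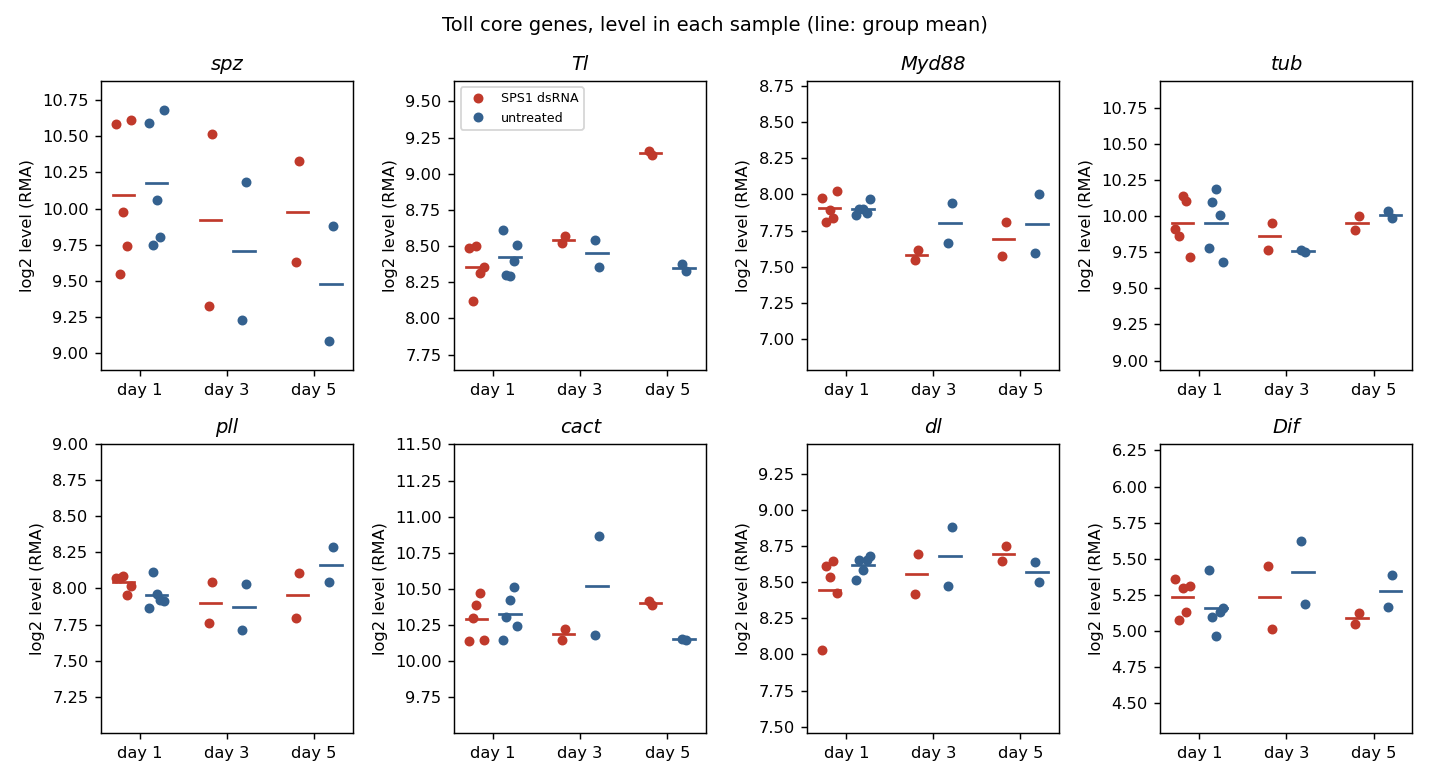
Log2 level (RMA) of the 8 measured Toll core genes in each sample at days 1, 3 and 5. Points are samples, red for SPS1 dsRNA and blue for untreated, lines are group means, and every panel spans the same number of log2 units. The SPS1 dsRNA samples of day 5 stand apart for Tl, at 9.16 and 9.13 against 8.37 and 8.33 in untreated cells, while spz is scattered on every day.

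In untreated cells the levels showed no detectable drift with time. Between day 3 and day 1, 0 of the 8 genes passed the limma test at adjusted p under 0.05, and 0 had an unadjusted p under 0.05, where 0.107% of all probe sets passed and 6.37% had an unadjusted p under 0.05. Between day 5 and day 1 the counts were again 0 and 0, where the shares were 0.186% and 10.8%. The largest of these differences belonged to spz, at -0.47 for day 3 against day 1 (adjusted p = 1) and -0.70 for day 5 against day 1 (adjusted p = 0.558). For pll, day 5 stood 0.21 above day 1 (adjusted p = 0.533), and the other 6 genes differed by at most 0.25 on either day.

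At day 1, 0 of the 8 Toll core genes passed in limma, and none of the 8 reached an unadjusted p under 0.05. The share over all probe sets was also 0%, with 290, or 1.55%, at an unadjusted p under 0.05. Changes of the 8 genes ran from -0.17 for dl to 0.09 for pll, with a median of -0.02 beside 0.0014 for all probe sets. At day 3 the count was 0 of 8, with 0 at an unadjusted p under 0.05, where 0.176% of all probe sets passed and 3.37% had such a p. The day 3 changes ran from -0.34 for cact to 0.22 for spz, with a median of -0.05 beside 0.0018 for all probe sets. At day 5, 1 of the 8 genes rose and 0 fell, where 2.79% of all probe sets passed, 1.19% higher and 1.59% lower. The gene that rose was Tl. The day 5 changes ran from -0.21 for pll to 0.79 for Tl, with a median of 0.04 beside 0.01 for all probe sets.

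Samples of 1 day that share a replicate number in the labels deviated together across the array, so a fit with the number as a block was run as well. With the block, 0 of the 8 genes passed at day 1 and 0 at day 3, where 0% and 1.25% of all probe sets passed. At day 5 the block gave 2 of 8 genes, Tl and spz, where 12.2% of all probe sets passed. It changed the call of no other counted probe set within a day.

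**Figure D2:**
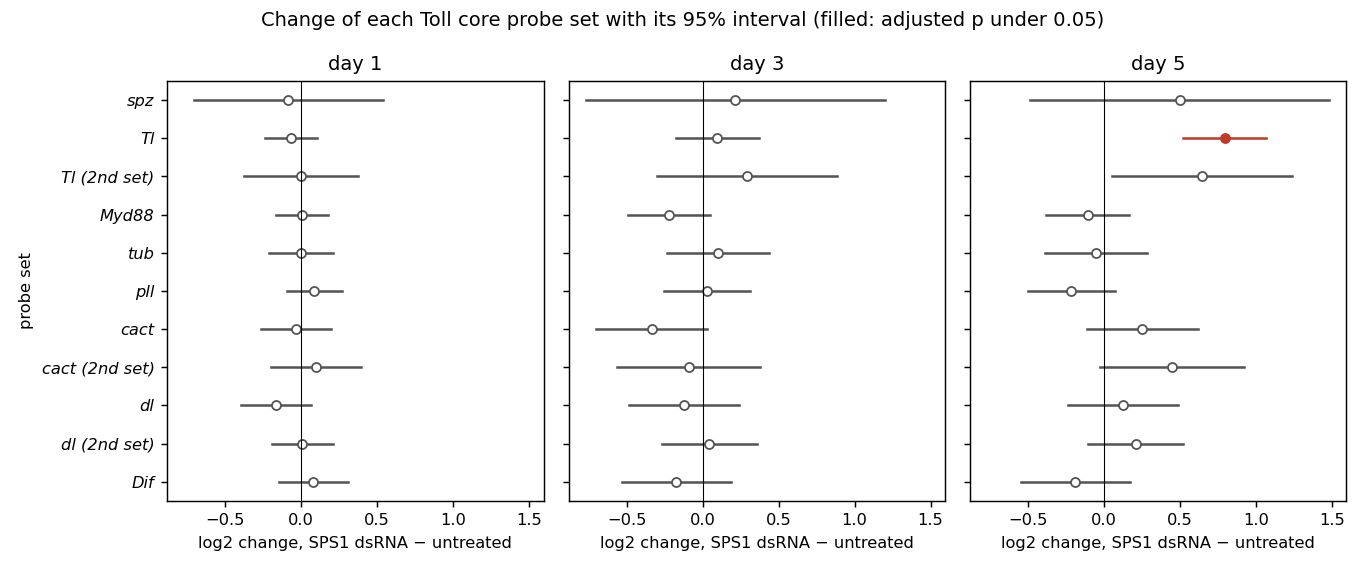
Log2 change in SPS1 dsRNA cells against untreated cells for the 11 probe sets, with 95% intervals from limma, in 1 panel per day. The filled red point marks an adjusted p under 0.05, which Tl reached at day 5 with 0.79 (interval 0.52 to 1.07). All intervals of day 1 and day 3 include 0.

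The ligand gene spz encodes Spätzle, a secreted cytokine that must be cleaved to bind Toll. At day 5 its level was 9.63 and 10.33 in SPS1 dsRNA cells, against 9.09 and 9.88 in untreated cells. The groups overlapped, because sample 1 of the dsRNA cells lay below sample 2 of the untreated cells. The change was 0.50 (SE 0.46, 95% interval -0.49 to 1.48, adjusted p = 0.77). With the replicate number as a block the same change had an SE of 0.08 and adjusted p = 0.00226.

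What separates these fits is how much spz varied between replicate numbers. At day 1 its level was 10.59, 9.55, 9.98, 9.74 and 10.62 in SPS1 dsRNA samples 1 to 5. The untreated samples 1 to 5 of day 1 were at 10.59, 9.75, 10.06, 9.81 and 10.68. The highest and lowest samples of each group carried the same numbers in both. The SD over the 5 samples was 0.49 in SPS1 dsRNA cells and 0.44 in untreated cells, whereas the SD of the 5 differences within a number was 0.07.

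Those 5 differences ran from -0.21 to -0.01, all with the dsRNA sample lower, and the day 1 change was -0.09 (SE 0.29, adjusted p = 1). At day 3 spz stood at 9.32 and 10.52 in SPS1 dsRNA cells and at 9.23 and 10.18 in untreated cells. Within numbers the day 3 differences were 0.09 and 0.34, both with the dsRNA sample higher. The fitted change was 0.22 (SE 0.46, adjusted p = 1; 0.367 with the block). At day 5 the differences within numbers were 0.55 and 0.45. The change at day 5 exceeded that at day 1 by 0.58 (SE 0.55, adjusted p = 0.868; 0.00381 with the block).

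The receptor gene Tl encodes Toll, the transmembrane receptor of Spätzle. At day 5 its level was 9.16 and 9.13 in SPS1 dsRNA cells, against 8.37 and 8.33 in untreated cells. Both dsRNA samples stood above every other sample of the series. The change was 0.79, a 1.73-fold higher level (SE 0.13, 95% interval 0.52 to 1.07, limma adjusted p = 0.00151). Group means at day 5 were 9.14 ± 0.02 in SPS1 dsRNA cells and 8.35 ± 0.03 in untreated cells (SD, n = 2 each). These are bulk samples, in which a change in the share of cells that carry a transcript and a change in RNA per cell cannot be told apart.

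Tl did not pass on the earlier days. At day 1 SPS1 dsRNA samples 1 to 5 were at 8.49, 8.12, 8.50, 8.31 and 8.35, and untreated samples 1 to 5 were at 8.61, 8.30, 8.29, 8.40 and 8.51. The groups overlapped, with a change of -0.07 (SE 0.08, adjusted p = 1). At day 3 the level was 8.52 and 8.57 in SPS1 dsRNA cells and 8.55 and 8.35 in untreated cells, a change of 0.10 (SE 0.13, adjusted p = 1). In the order of the 6 group means, the day 5 dsRNA group came first without overlap. Each of the other 5 groups, with means from 8.35 to 8.55, overlapped with its neighbour in that order.

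The change of Tl at day 5 exceeded that at day 1 by 0.86 (SE 0.15, adjusted p = 0.00623), and it was the only 1 of the 8 genes to pass this comparison, where 1.4% of all probe sets passed. With the block both Tl and spz passed it, where 6.82% of all probe sets passed. Against day 3, with the same day 5 samples, the excess was 0.70 (adjusted p = 0.295), and with the block adjusted p = 0.0371. That comparison passed for 0.0959% of all probe sets, and for 1.2% with the block.

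The second Tl probe set was dim, straddling the array medians. It read 4.78 and 5.39 in SPS1 dsRNA cells at day 5 and 4.17 and 4.71 in untreated cells, so the groups did not overlap, although the nearest samples were close. Its day 5 change was 0.64 (SE 0.28, adjusted p = 0.333), and with the block adjusted p = 0.0009. That change exceeded the change at day 1 by 0.65 (adjusted p = 0.601; 0.00423 with the block). Within numbers the day 5 differences were 0.61 and 0.68 for this probe set and 0.79 and 0.80 for the brighter one.

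The call of Tl at day 5 rested on a spread estimated over all 6 groups. With only the 4 samples of day 5 in the fit, the change of 0.79 had adjusted p = 0.0859. Leaving out any 1 of those 4 samples in the full fit left Tl between 0.77 and 0.82, past the threshold each time. When the values of both Tl probe sets were averaged, the day 5 change was 0.72 (adjusted p = 0.0301), and the excess over day 1 was 0.75 (adjusted p = 0.0996), so that second call was lost.

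The SPS1 dsRNA arrays of day 5 also stood farthest from the rest. Their median root mean square difference from other arrays was 0.369 and 0.339 log2 units, against 0.253 to 0.308 for the remaining arrays. The summed log2 level of the 10 plasmatocyte markers was 61.3 to 64.6 in SPS1 dsRNA cells at day 5 and 55.3 in both untreated samples. Of these markers, Pxn and eater passed the test, each higher in SPS1 dsRNA cells, where 2.79% of all probe sets passed. With the block Hml and Col4a1 passed as well, where 12.2% of all probe sets passed. Crystal cell and lamellocyte markers summed to 25.3 to 25.8 in SPS1 dsRNA cells and to 26.6 to 26.9 in untreated cells, with lz and PPO1 below and PPO2 and PPO3 above every array's median. Of these 5 markers 0 passed, and 2 had an unadjusted p under 0.05, where 12.6% of all probe sets had one. With the block PPO3 passed with a change of -0.99 (adjusted p = 0.000109). Much of the lower sum of these markers therefore lay in this 1 gene, and the sum does not show a shift of the whole list. The 3 neuron markers summed to 16.8 to 17.2 in SPS1 dsRNA cells and to 17.2 to 17.4 in untreated cells, and 0 passed, with 0 at an unadjusted p under 0.05. The part of these differences in the change of Tl was not tested.

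**Figure D3:**
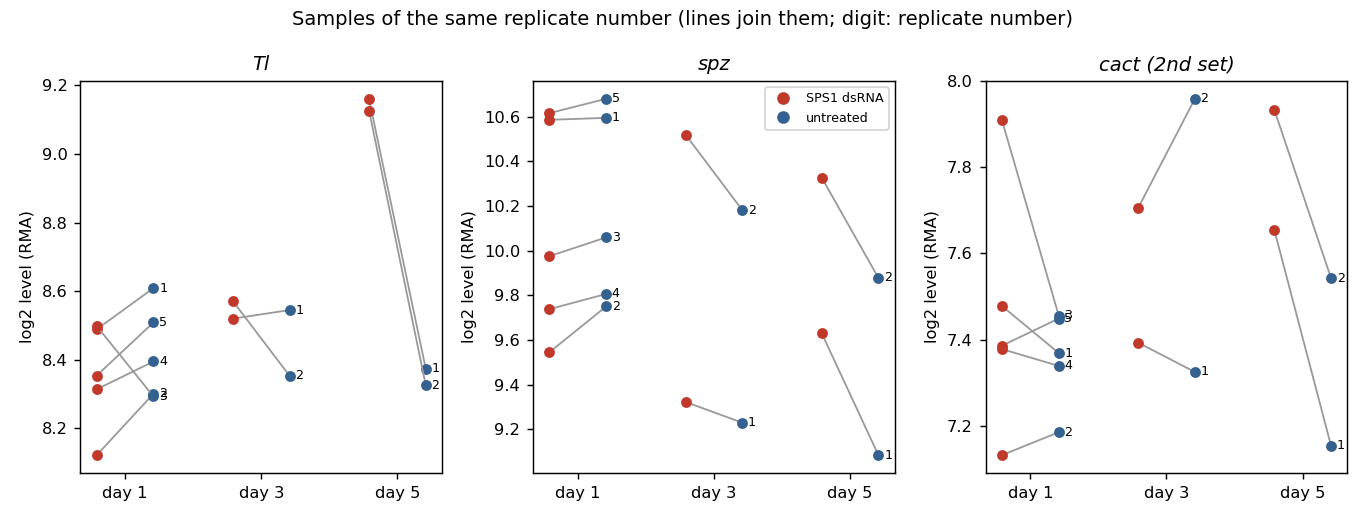
Log2 level (RMA) of Tl, spz and the second probe set of cact, with lines joining an SPS1 dsRNA sample (red, left) to the untreated sample (blue, right) of the same day and replicate number (digit). For spz the lines of 1 day are far apart but nearly parallel. At day 5 both lines of each panel run downward to the untreated sample.

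The adaptors and the kinase downstream of the receptor did not pass on any day. Myd88, the adaptor that binds the receptor's intracellular domain, was at 7.57 and 7.81 in SPS1 dsRNA cells at day 5, against 7.592 and 8.002 in untreated cells. The groups overlapped, with a change of -0.11 (95% interval -0.38 to 0.16, adjusted p = 0.841). At day 3 Myd88 was at 7.55 and 7.62 in SPS1 dsRNA cells and at 7.66 and 7.94 in untreated cells. Both dsRNA samples lay lower there, with a change of -0.22 (SE 0.13, adjusted p = 1).

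tub encodes Tube, the adaptor between MyD88 and Pelle. Its level at day 5 was 9.91 and 10.00 in SPS1 dsRNA cells and 10.03 and 9.98 in untreated cells, which overlapped. The change was -0.055 (95% interval -0.39 to 0.28, adjusted p = 0.952), and it had the opposite sign after cyclic loess. At day 3 tub was at 9.77 and 9.95 in SPS1 dsRNA cells, just above 9.77 and 9.75 in untreated cells. That difference of 0.10 had adjusted p = 1.

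pll encodes Pelle, the kinase of the complex and the relative of mammalian IRAK. It stood at 7.80 and 8.11 in SPS1 dsRNA cells at day 5 and at 8.04 and 8.29 in untreated cells. The groups overlapped although each dsRNA sample was below the untreated sample of its number. The change of -0.21 had a 95% interval of -0.50 to 0.07 (adjusted p = 0.593). At days 1 and 3 the changes were 0.09 and 0.03, each with adjusted p = 1.

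The inhibitor gene cact encodes Cactus, the Drosophila IκB, and is itself a target of the pathway. At day 5 cact was at 10.42 and 10.39 in SPS1 dsRNA cells, against 10.16 and 10.15 in untreated cells. The groups did not overlap, yet the change of 0.25 did not pass (SE 0.17, 95% interval -0.11 to 0.62, adjusted p = 0.637; 0.191 with the block). The second probe set was at 7.66 and 7.93 in SPS1 dsRNA cells and at 7.15 and 7.54 in untreated cells at day 5. Its change of 0.45 (SE 0.22, adjusted p = 0.441) passed with the block (adjusted p = 0.0337).

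Neither probe set of cact passed on the earlier days. At day 3 the brighter one was at 10.15 and 10.23 in SPS1 dsRNA cells and at 10.18 and 10.87 in untreated cells, a change of -0.34 (SE 0.17, adjusted p = 1). Without untreated sample 2 the change was 0.01, and without untreated sample 1 it was -0.68. With 2 untreated samples it cannot be told which of them was unusual. At day 1 the change of the brighter probe set was -0.04 (adjusted p = 1). Its 5 differences within numbers ran from -0.09 to -0.01, all with the dsRNA sample lower. The second probe set changed by 0.10 at day 1, with differences within numbers from -0.06 to 0.45, and by -0.09 at day 3.

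The transcription factor genes dl and Dif did not pass on any day. dl encodes Dorsal, and at day 5 it was at 8.64 and 8.75 in SPS1 dsRNA cells and at 8.64 and 8.50 in untreated cells. Both dsRNA samples lay above, sample 1 only marginally, and the change was 0.13 (95% interval -0.24 to 0.49, adjusted p = 0.868). The second dl probe set had a day 5 change of 0.21 (adjusted p = 0.661).

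At day 1 dl was at 8.03, 8.61, 8.54, 8.64 and 8.43 in SPS1 dsRNA samples 1 to 5. The untreated samples 1 to 5 were at 8.51, 8.65, 8.58, 8.65 and 8.68. Sample 1 of the dsRNA cells was the lowest, and each dsRNA sample lay below the untreated sample of its number. The change was -0.17 (SE 0.11, adjusted p = 1), while the second probe set gave 0.01 (SE 0.09, adjusted p = 1).

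Dif encodes the Dorsal-related immunity factor, the main Toll effector of adult immunity. At day 5 it was at 5.05 and 5.13 in SPS1 dsRNA cells, against 5.17 and 5.39 in untreated cells. Both dsRNA samples were lower, with a change of -0.19 that did not pass (95% interval -0.55 to 0.17, adjusted p = 0.756). At days 1 and 3 the changes were 0.08 and -0.17, each with adjusted p = 1.

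Counting genes whose groups did not overlap gave 4 of 8 at day 5, where 35.3% of all probe sets did not overlap. These were Tl, cact and dl, higher in SPS1 dsRNA cells, and Dif, lower in them. At day 3 the count was 2 of 8, tub higher and Myd88 lower in SPS1 dsRNA cells, where 24.3% of all probe sets did not overlap. At day 1 it was 0 of 8, where 0.362% did not. With 2 samples in a group separation is common across the array, and nothing is read from these counts.

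Genes around the core were described through wider lists. Without the block, 0 genes of the 7 other Toll and Imd lists passed in limma at day 1 or day 3. At an unadjusted p under 0.05 the counts were 0 in each list at day 1 and 0 to 3 per list at day 3. Over all probe sets, 1.55% reached that level at day 1, 3.37% at day 3 and 12.6% at day 5. The share of all probe sets that passed the adjusted test at day 5 was 2.79%, and 12.2% with the block. Of 8 listed recognition genes, 3 were measured and 0 passed at day 5, with 2 at an unadjusted p under 0.05. GNBP3, which binds fungal β-glucan, was at 5.39 and 6.27 in SPS1 dsRNA cells at day 5, against 7.68 and 7.57 in untreated cells. Its change of -1.80 (SE 0.48) had adjusted p = 0.0569, and 3.5e-05 with the block. The call depended on processing, with adjusted p = 0.0403 when dim probe sets were left out. With technical arrays averaged with replicate 1 it was 0.0436. At day 3 GNBP3 changed by -1.27 (adjusted p = 1; 0.00296 with the block). PGRP-SC2, a peptidoglycan-degrading recognition protein, had a day 5 change of 0.34 (adjusted p = 0.353; 0.0171 with the block).

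Of 17 listed extracellular proteases and serpins, 15 were measured and 0 passed at day 5, with 1 at an unadjusted p under 0.05. That 1 was grass, a serine protease upstream of Spätzle, at 9.165 and 9.001 in SPS1 dsRNA cells and at 8.13 and 8.03 in untreated cells. Its groups did not overlap, and its change of 1.00 had adjusted p = 0.33, and 4e-05 with the block. Spn88Ea, a serpin, had a change of 0.22 (adjusted p = 0.409). The median over the 15 genes was 0.08.

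Of 8 other Toll receptor genes, 6 were measured and 0 passed at day 5, with 2 at an unadjusted p under 0.05. Toll-7, a receptor with a role in antiviral defence, was at 5.695 and 6.709 in SPS1 dsRNA cells and at 4.90 and 5.50 in untreated cells. Its groups did not overlap, and the change of 1.01 (SE 0.32) had adjusted p = 0.125, and 0.000522 with the block. 18w, known for roles in morphogenesis, had a change of 0.55 (adjusted p = 0.394; 0.0262 with the block). The median over the 6 receptors was 0.20. Of the 5 paralogues of spz, all measured, 0 passed, with 1 at an unadjusted p under 0.05. NT1, a neurotrophin-like member, had a change of 0.34 (adjusted p = 0.34), and spz4 had 0.16 (adjusted p = 0.747).

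Of 19 intracellular modulators, 15 were measured, and at day 5 tamo fell while 0 rose. tamo encodes a protein that limits nuclear import of Dorsal. It was at 5.40 and 5.27 in SPS1 dsRNA cells at day 5, against 6.76 and 6.84 in untreated cells. The change was -1.46 (SE 0.21, adjusted p = 0.000485). At day 3 tamo stood at 6.06 and 6.04 in SPS1 dsRNA cells and at 7.09 and 6.81 in untreated cells, without overlap, and the change was -0.90 (adjusted p = 0.156; 0.01 with the block). With the block Gprk2, a kinase needed for full Toll signalling, passed at day 5 with 0.43 (adjusted p = 0.502 without it and 0.00952 with it). The median over the 15 modulators was -0.11.

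Of 28 listed target genes, 19 were measured, and at day 5 Mtk rose while 0 fell. Mtk encodes metchnikowin, an antifungal peptide that the Toll and Imd pathways can both induce. It was at 10.35 and 10.08 in SPS1 dsRNA cells at day 5, against 5.04 and 6.25 in untreated cells. The change was 4.57 (SE 0.68, adjusted p = 0.000735). At day 3 Mtk stood at 6.50 and 8.55 in SPS1 dsRNA cells and at 5.16 and 6.55 in untreated cells, and the change of 1.67 had adjusted p = 1, and 0.014 with the block. Drs encodes drosomycin, the classic readout of Toll signalling in flies. It was at 6.85 and 7.37 in SPS1 dsRNA cells at day 5, above 5.61 and 6.33 in untreated cells. Its change of 1.14 (SE 0.48) had adjusted p = 0.316, and 0.00186 with the block.

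The Bomanins, short secreted peptides induced through Toll in adult flies, gave little signal. Their 8 measured genes lay between 2.73 and 5.46 in all samples, and 6 of them were below every array's median throughout. Day 5 changes of these 8 ran from -0.07 to 0.28, and 0 passed, the smallest adjusted p being 0.456, for BomBc2. The median over all 19 target genes was 0.10.

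The Imd pathway, the other NF-κB pathway of fly immunity, was set beside the Toll genes. Of 18 listed genes, 16 were measured, with a median change of 0.16 at day 5. On that day 1.19% of all probe sets passed higher and 1.59% lower, and of the Imd genes 5 rose and 0 fell. Of these 5, pirk rose by 1.86 (adjusted p = 0.00103), PGRP-LF by 1.93 (0.0025), PGRP-LB by 0.86 (0.00924) and PGRP-LA by 0.57 (0.0475). pirk, PGRP-LF and PGRP-LB restrain Imd signalling. Rel, its NF-κB factor and counterpart of dl and Dif, was at 10.79 and 10.48 in SPS1 dsRNA cells and at 9.96 and 9.96 in untreated cells. Its change was 0.68 (adjusted p = 0.0108). Rel, PGRP-LB and PGRP-LA each lost the call in 3 of the 4 fits that left out 1 day 5 sample, with adjusted p up to 0.258. After median subtraction PGRP-LB and PGRP-LA had adjusted p of 0.0513 and 0.189, and PGRP-LA had 0.178 after cyclic loess. With only the 4 samples of day 5 in the fit, Rel, PGRP-LB and PGRP-LA had adjusted p of 0.232, 0.293 and 0.411. The calls of pirk and PGRP-LF held in these settings. With the block, where 12.2% of all probe sets passed at day 5, key and Fadd passed as well. key, which encodes an IKK subunit, was higher by 0.37 (adjusted p = 0.00932). The adaptor gene Fadd changed by -0.47 (adjusted p = 0.0209). Whether the Imd and Toll lists differed from each other was not tested.

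**Figure D4:**
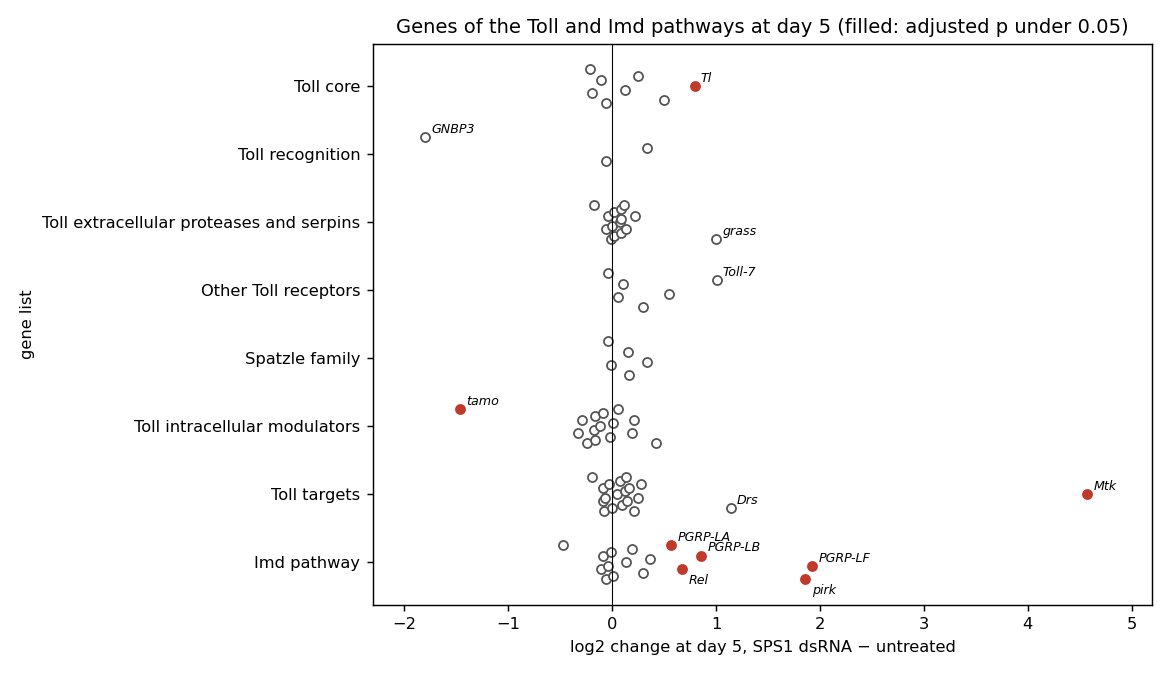
Log2 change at day 5 in SPS1 dsRNA cells against untreated cells for each measured gene of the Toll and Imd lists, 1 row per list. Filled red points passed adjusted p under 0.05: Tl in the core, tamo among the modulators, Mtk among the targets and 5 Imd genes. Most other points lie near 0, and GNBP3, grass, Toll-7 and Drs are named without having passed.

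The genes whose pattern over the 18 samples was most like that of Tl were LManII, DptB, Gpdh1, AttD and edin. Pearson's r with Tl was 0.92 for LManII, a lysosomal alpha-mannosidase gene, and 0.89 for DptB, which encodes a diptericin. It was 0.89 for Gpdh1, a glycerol phosphate dehydrogenase gene, 0.88 for AttD, an attacin gene, and 0.88 for edin, an immune-induced gene. These are the highest values among 5611 named genes with a mean level of 6 or more. The 18 points share 6 groups and their replicate numbers, so they are not independent, and the values only describe likeness.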

How the data were processed

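RNA was measured on 20 arrays. The authors deposited log2 values made with RMA, per the submitters' processing notes. Version and annotation of RMA were not given in the sources used here. Tests ran on 18769 probe sets, without the 183 controls. Probe sets were named through the platform annotation, with symbols checked by Entrez identifier against the RefSeq table. Of these, 13647 had 1 symbol, 402 several and 4720 none. No coordinates are given, since the array design names no genome build here, and the level of the knockdown target is not reported here.

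Each day 3 group held 1 technical array, whose values were averaged with replicate 2 to give 18 samples. In limma 3.58.1 (R 4.3.3), all 6 groups entered 1 model with moderated variances (12 residual degrees of freedom, 4.26 prior), so tests at days 3 and 5 borrow their spread mostly from day 1. Benjamini-Hochberg adjustment ran over all 18769 probe sets, at a threshold of 0.05. Each adjusted p is limma's. The fit without the block was also run on simulated data whose samples were drawn independently. Such data cannot show how either fit behaves when same-numbered samples deviate together.

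Same-numbered samples of a day deviated together over 6843 probe sets, with r of 0.69 to 0.84 in 5 pairs at day 1. The highest r with another number ran from 0.42 to 0.61 there. At days 3 and 5, r was 0.78 and 0.71, each only 1 value because deviations in groups of 2 mirror each other. For this reason blocked values are given where they change a call of a member. For genes of the wider Toll and Imd lists they are given where they change a call within a day. The pairing comes from the replicate numbers in the labels, which do not say what a number marks.

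Genes named are all members, each gene of the wider lists that passed, otherwise the 2 smallest p at day 5 per list, and the 5 genes most like a member that passed. Genes that passed only with the block (Drs, Gprk2, key, Fadd), and the Bomanins as a group, were added after their values were seen. The members and lists were chosen with earlier results of these data known. Alternatives tried were the block, array medians, cyclic loess, a filter at a mean of 5, technical arrays handled otherwise, 2 groups per fit, probe set means and leaving out each sample.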

Additional observations from a re-analysis of the deposited data

Results flagged for a closer look

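The change of Tl at day 5 differed from its change at day 1 in a direct test of the difference. It was larger by 0.86 on the log2 scale (SE 0.15, limma adjusted p = 0.00623), with SPS1 dsRNA samples higher in 2 of 2 same-numbered pairs at day 5 and in 1 of 5 at day 1. No sample of the 11 member probe sets stood far from the rest of its group by Dixon's criterion, in the 22 groups of 5 samples that could be tested.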

How the results depend on the processing

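With the replicate number as a block, 234 probe sets passed at day 3 and 2293 at day 5, against 33 and 523 without it. The Toll core genes that passed with the block numbered 2 at day 5, 2 for day 5 against the day 1 change and 1 for day 5 against the day 3 change. Untreated cells compared between days were fitted without the block, because the block was defined within a day. With 2 groups per fit, 0 probe sets passed at day 3 and 81 at day 5, and 0 Toll core genes at day 5. With probe set means, 0 core genes passed for day 5 against the day 1 change. Technical arrays averaged with replicate 1 gave 72 at day 3. For untreated day 3 against day 1, 20 passed, with 274 under that averaging and 4 with 2 groups. For untreated day 5 against day 1, 35 passed, with 98 under that averaging, 18 after median subtraction, 55 after cyclic loess and 55 with 2 groups.

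Leaving out 1 sample gave 0 to 1 probe sets at day 1, 11 to 36 at day 3 and 264 to 777 at day 5, and 5 to 92 and 1 to 22 for untreated days 3 and 5 against day 1. Among the results given here, signs turned only for changes that had not passed. Outside the leave-one-out fits these were Myd88 at day 1 (-0.0045, cyclic loess), tub at day 5 (0.033, cyclic loess), pll at day 3 (-0.015, technical arrays left out), cact at day 1 (0.030, probe set means), pll for untreated day 3 (0.029, technical arrays with replicate 1) and dl for untreated day 5 (0.0096 after median subtraction, 0.01 with probe set means). With 1 sample left out, day 1 changes ran from -0.22 to 0.051 for spz, -0.023 to 0.030 for Myd88, -0.070 to 0.057 for tub, -0.082 to 0.0098 for cact, and in second probe sets -0.10 to 0.10 for Tl, -0.016 to 0.18 for cact and -0.044 to 0.060 for dl. At day 3 they ran from -0.38 to 0.81 for spz, -0.13 to 0.19 for pll, -0.68 to 0.0068 for cact, -0.33 to 0.082 for dl, -0.39 to 0.044 for Dif, and in second probe sets -0.41 to 0.22 for cact and -0.094 to 0.18 for dl. At day 5 they ran from -0.31 to 0.097 for Myd88 and -0.059 to 0.38 for spz4. The day 3 minus day 1 change of spz ran from -0.30 to 0.90, and day 5 minus day 3 from -0.32 to 0.88. For untreated day 3 against day 1 the ranges were -0.95 to 0.0039 for spz, -0.068 to 0.12 for Tl, -0.24 to 0.042 for Myd88, -0.24 to 0.072 for pll, -0.15 to 0.54 for cact and -0.14 to 0.27 for dl. For untreated day 5 they were -0.31 to 0.10 for Myd88, -0.0098 to 0.12 for tub and -0.12 to 0.026 for dl. Changes of these sizes could turn on 1 sample, in the groups of 5 at day 1 as in the groups of 2 at days 3 and 5. The causes were not tested.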
